A study of Mus musculus with 14 samples.

Results

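The colitis response of Flox mice, the controls of the study, was followed across the genes of whole colon. Members were chosen by their labels: the 3 arrays labelled Flox_DSS and the 4 labelled Flox_ctrl, which together are 7 of the 14 arrays of the series. Flox mice carry loxP sites around Nr3c1, the gene of the glucocorticoid receptor, but no Cre, so the receptor is intact. In the GR iKO mice of the other 7 arrays, Villin-cre had removed it from the intestinal epithelium alone. All animals were C57BL/6 females of 4 to 6 months on chow. For 7 days they drank either plain water or 2.5% dextran sulfate sodium (DSS), 1 mouse per array. DSS is a sulfated polysaccharide that injures the colonic epithelium and lets luminal bacteria reach the mucosa. The injured colon recruits neutrophils and monocytes, its fibroblasts remodel the matrix, and surviving crypt cells leave their usual programme to cover the wound. Absorptive colonocytes burn bacterial butyrate in their mitochondria, goblet cells make the mucus, and stem cells at the crypt base renew both.

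Each value below is the log2 of a probe's signal on a one-colour Agilent array minus that array's 75th percentile, so 0 marks a bright probe and values below 0 dimmer ones. A gene was read from its brightest probe, and only differences between groups were compared, never levels of different genes. Per-array values are given in the order water replicates 1, 2, 3 and 4, then DSS replicates 1, 2 and 4. A gene was called when its adjusted p was below 0.05 in the limma fit of water against DSS, corrected over the 28131 probes that the scanner flagged above background in 3 or more Flox arrays. The number of arrays, 4 and 3, limits the precision of every value. In whole tissue, fewer cells of a type and less RNA per cell cannot be told apart.

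The array of DSS replicate 4 stood apart from the others. Its 75th percentile intensity was 262, against 707 to 1003 on the water arrays and up to 675 on the other DSS arrays. On the second principal component it scored 90.0, while DSS replicates 1 and 2 scored -24.6 and -44.6. Counts of list members that moved by over 1.5 times without it are therefore given both ways. Of the 66 named genes not called, 22 were called without it, all in the same direction, and 9 of the 210 called were no longer called; their adjusted p without it stands after the word "or". Without 1 of the other arrays, counts of 0 to 3 genes moved by at most 3, and larger counts are given both ways where they moved by over 1.5 times. Genes of neighbouring tissues also differed between arrays, read through lists added after the data were seen. Of the 18 exocrine pancreas genes 8 rose and none fell, while Amy2a5 (amylase, adjusted p = 0.064) and Cpa1 (carboxypeptidase, adjusted p = 0.090) were not called. Together they summed to 56.4, 35, 1.69 and 455 times the 75th percentile on the water arrays and to 1220, 392 and 11994 on the DSS arrays. Pancreatic transcripts were thus present in both groups and most abundant on DSS replicate 4. Ptf1a, the defining transcription factor of acinar cells, was flagged above background on none of the 4 water arrays. The 14 measured hepatocyte genes summed to 2.72 to 4.79 on water and to 14.4, 11.3 and 27.6 on DSS. Of these 11 rose, among them Tat by 1.28, Alb by 4.55 and Ahsg by 5.54 on the log2 scale. The sums weigh the brightest probes most. Ttr, transthyretin, was not well above background on any DSS array and was at least 10.0-fold lower (adjusted p = 0.00048), and Cps1, the first enzyme of the urea cycle, fell (log2 difference -3.34). The 6 mesothelium genes summed to 4.28, 3.48, 4.82 and 0.817 on water and to 19.2, 23.1 and 1.69 on DSS, lowest on replicate 4 in both groups. The part of these tissues in the results was not tested, and their values are repeated beside the genes they move with.

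**Figure D1:**
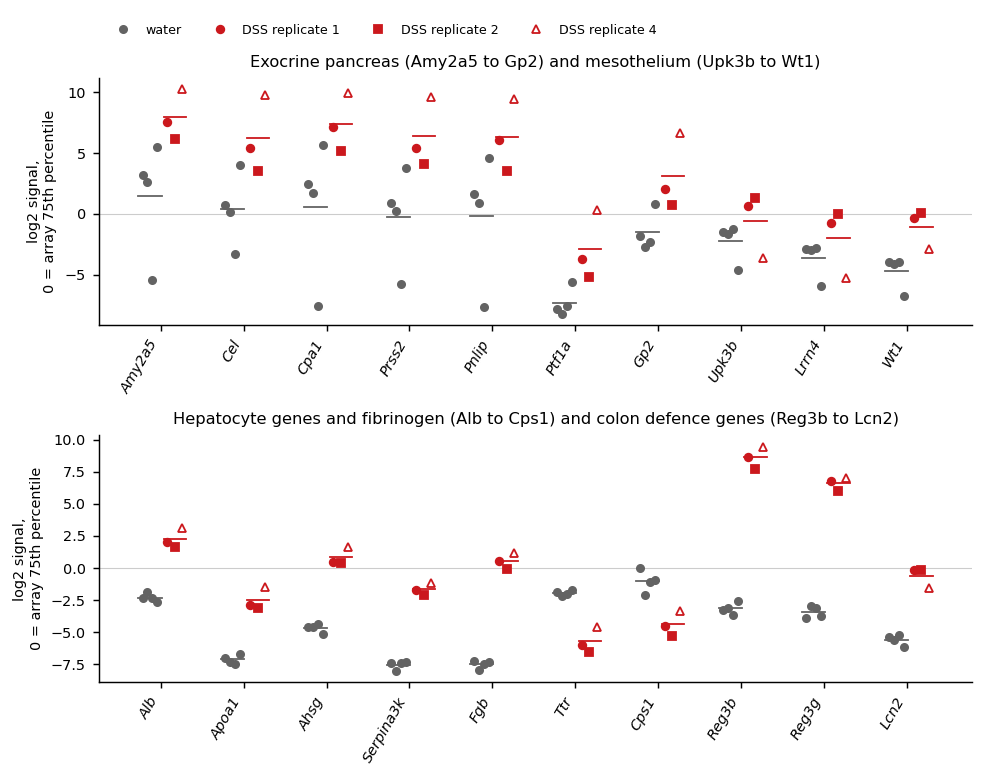
Log2 signal (0 = array 75th percentile) of pancreas, mesothelium and hepatocyte genes and of Reg3b, Reg3g and Lcn2 on each water array (grey) and each DSS array (red), with bars at the group means. The pancreas genes, Reg3b and Reg3g were highest on DSS replicate 4, and the mesothelium genes lowest on replicate 4 of each group.

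Over the whole array, DSS changed 15482 of the 28131 probes tested (55.0%), 6966 upward (24.8%) and 8516 downward (30.3%). Upward calls were 45% of calls with this scaling and 59.2% after normexp background correction. Scaling to the spike-in probes instead of the 75th percentile moved the median of all probes from -0.10 to -2.46, and only 1.49% of calls were then upward. Every direction below is therefore relative to the bulk of the transcripts on an array. Read gene by gene, 8513 of 15037 genes were called (56.6%), 4170 upward (27.7%) and 4343 downward (28.9%). Each count of list members below is to be read beside these shares. At 2-fold or more the balance differed: 2620 genes rose and 1501 fell. The groups did not overlap in 29.2% of genes upward and in 31.5% downward, so absence of overlap was common. Against this background, 40 lists of 914 distinct genes were described, of which 824 passed the filter and 12 did so only through the DSS arrays. Members that passed only through the water arrays are counted with their list. Among all genes, 72 passed only through the DSS arrays and 247 only through the water arrays. The median of 26 lists lay above that of all genes (-0.04) and the median of 14 below. Slides 1, 2 and 4 each held 1 water and 1 DSS array. The lists fell into 4 themes, taken in turn.

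**Figure D2:**
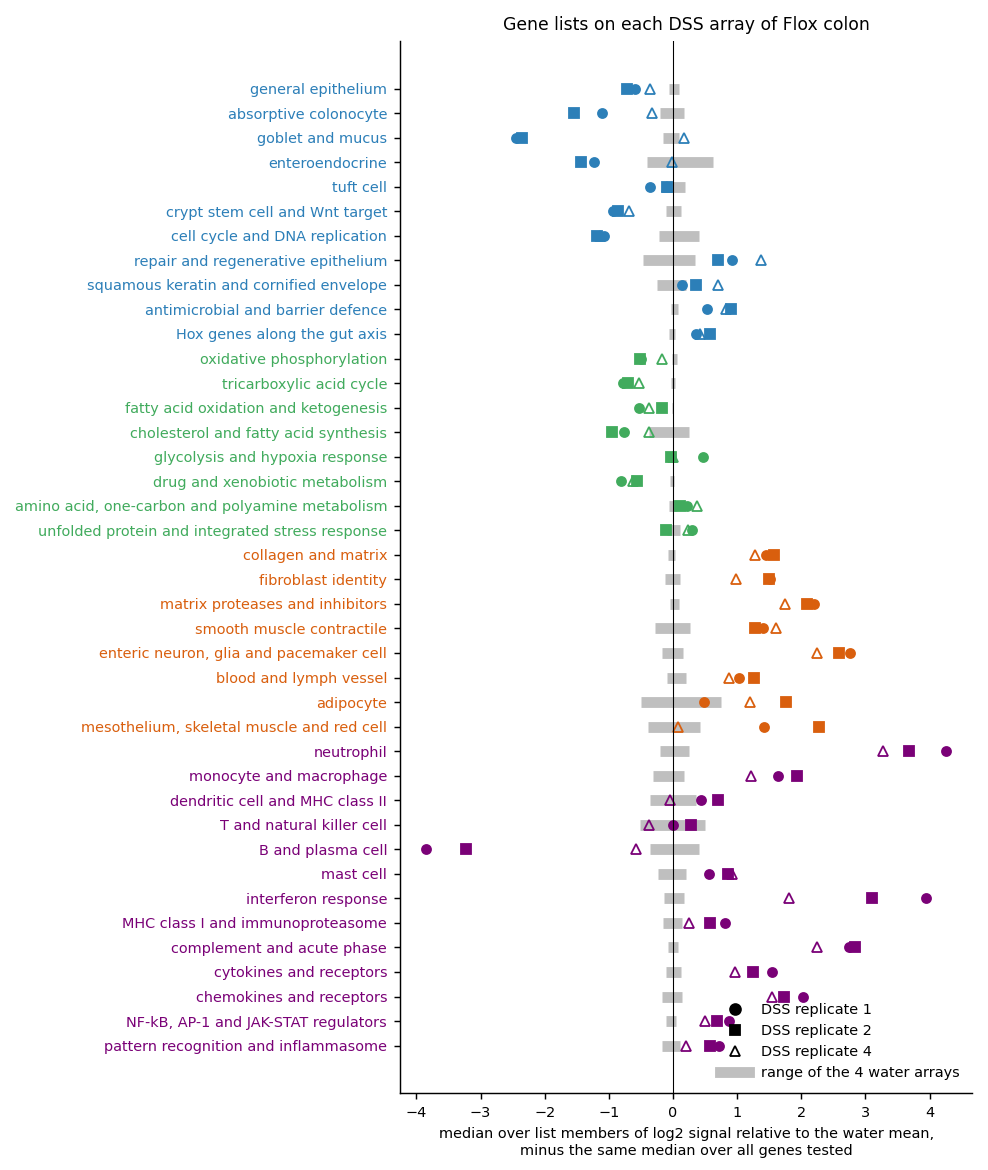
Median over the measured members of each of 40 gene lists on each DSS array, as log2 signal relative to the water mean minus the same median over all genes (horizontal axis); grey bars span the 4 water arrays. Epithelial (blue) and metabolic (green) lists lie mostly left of 0 and stromal (orange) and immune (purple) lists mostly right, and B and plasma cell genes were the farthest left on replicates 1 and 2, at -3.85 and -3.23, but not on replicate 4 (-0.58).

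The epithelial lists were examined first, and their members moved in both directions. Of 18 measured genes that mark any gut epithelial cell, 2 rose and 10 fell, beside 27.7% and 28.9% of all genes, with a median of -0.46. Krt8, a keratin of simple epithelia, read 8.75, 8.30, 8.61 and 8.45 on the water arrays and 8.61, 8.36 and 8.99 on the DSS arrays. The groups overlapped (log2 difference 0.12 ± 0.18 SE, adjusted p = 0.59), although quantile scaling turned the difference to -0.49 and called it (adjusted p = 0.043). The adhesion molecule Cdh1 (E-cadherin) did not pass either, at -0.26 with adjusted p = 0.22, or 0.048 without DSS replicate 4. Epcam, another surface molecule of all epithelial cells, fell 1.61-fold (log2 difference -0.69 ± 0.17 SE, adjusted p = 0.013). Colonic epithelial transcripts were thus present on every array of both groups. Larger falls were found for Ocln, a tight junction protein (log2 difference -1.74 ± 0.22 SE, adjusted p = 0.00078). Cdx1, a homeobox factor of intestinal identity, read 1.11, 1.31, 1.16 and 1.27 on water and -1.79, -1.71 and -0.64 on DSS, a 6.05-fold fall (log2 difference -2.60 ± 0.28 SE, adjusted p = 0.00042). Its relative Cdx2 read 4.31, 4.63 and 4.46 on DSS within the water range of 3.77 to 4.75 and was not called (adjusted p = 0.43). Elf3, an epithelial factor of the Ets family, had the largest rise of the list, 1.65-fold.

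Of 19 measured genes of absorptive colonocytes, 9 fell and 2 rose, and without DSS replicate 4 there were 13 that fell, with a median of -1.52 in place of -0.91. Slc26a3, the chloride and bicarbonate exchanger of the colon surface, read 3.92, 3.51, 4.23 and 4.16 on water and 2.25, 2.50 and 3.81 on DSS (log2 difference -1.10 ± 0.39 SE, adjusted p = 0.046). DSS replicate 4 lay inside the water range and the other DSS arrays below it. The carbonic anhydrases Car1 (-0.72, adjusted p = 0.26 or 0.038) and Car4 (-0.91, adjusted p = 0.14 or 0.0026) and the water channel Aqp8 (-0.70, adjusted p = 0.097 or 0.00077) were called without DSS replicate 4 and not with it. The epithelial sodium channel was lower through its beta and gamma subunits. The gamma subunit Scnn1g had the largest fall of the list, from -2.56, -3.72, -1.68 and -1.86 to -6.84, -7.38 and -4.30 (log2 difference -3.72 ± 0.81 SE, adjusted p = 0.0074). The beta subunit Scnn1b fell 5.08-fold. The largest rise was that of Slc51a (log2 difference 3.02 ± 1.04 SE, adjusted p = 0.042), an organic solute transporter of bile acids, which was well above background on 1 water and 2 DSS arrays.

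Goblet cell genes depended on which DSS arrays were read. Muc2, the gel-forming mucin of the colon, read 6.84, 7.10, 6.70 and 6.18 on water and 4.91, 5.30 and 7.09 on DSS, with replicates 1 and 2 below every water array and replicate 4 within their range (log2 difference -0.94 ± 0.51 SE, adjusted p = 0.16 or 0.0028). The trefoil peptide Tff3 read 7.75, 7.30, 7.87 and 7.70 on water and 5.78, 5.78 and 8.57 on DSS (adjusted p = 0.27 or 0.00026), and Clca1, a mucus-processing protease, 7.34, 6.33 and 9.31 on DSS against 8.05 to 8.47 on water (adjusted p = 0.38 or 0.0048). For both, replicates 1 and 2 lay below every water array and replicate 4 above. These 3 genes were called without DSS replicate 4 and not with it. Spdef, which drives goblet maturation, fell 5.08-fold (log2 difference -2.35 ± 0.55 SE, adjusted p = 0.0096), with DSS values of -0.60, -0.66 and 1.27 all below the water arrays. Best2, an anion channel of goblet cells, had the largest fall of the list, from 4.75, 3.96, 5.10 and 4.74 to -3.16, -0.55 and 3.57 (log2 difference -4.69 ± 1.40 SE, adjusted p = 0.026). None of the 17 measured genes rose and 6 fell beside 28.9% of all genes. Without DSS replicate 4, 14 fell and the median changed from -1.57 to -2.51. Within slides 1, 2 and 4 the list median was -2.48, -2.65 and 0.38, so the list did not keep its direction on slide 4.

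Enteroendocrine genes moved in both directions. Of 15 measured, 7 fell, led by Insl5, the insulin-like peptide of colonic L cells, at 6.10, 6.64, 6.14 and 6.35 on water and 1.34, 1.28 and 5.77 on DSS (log2 difference -3.51 ± 1.06 SE, adjusted p = 0.026). Chga, the granule protein common to hormone cells, fell 2.40-fold (log2 difference -1.26 ± 0.30 SE, adjusted p = 0.010). Gcg and Pyy, 2 further L cell hormones, read -0.05, -0.13 and 3.28 and 3.94, 4.41 and 6.76 on the DSS arrays, with replicate 4 above replicates 1 and 2 in both, and were not called (adjusted p = 0.13 and 0.11, or 0.0020 and 0.00019 without DSS replicate 4). Within slides 1, 2 and 4 the list median was -0.75, -2.09 and 0.12. Of the 15, 2 had passed the filter only through the water arrays. The 4 members that rose included Nts, neurotensin, from -3.43, -2.44, -4.14 and -4.76 to 0.11, 0.00 and -1.45 (log2 difference 3.25 ± 0.62 SE, adjusted p = 0.0041). Of 11 measured tuft cell genes 1 rose and 2 fell, or 4 without DSS replicate 4. Their median was -0.04, near that of all genes, and lay above it with normexp correction (0.14). Dclk1, the usual marker of these chemosensory cells, was within its water range on 2 of 3 DSS arrays (log2 difference 0.02 ± 0.17 SE, adjusted p = 0.94). The taste-type cation channel Trpm5 fell 3.52-fold (adjusted p = 0.010) and the prostaglandin synthase Ptgs1, not particular to tuft cells, rose 2.63-fold (adjusted p = 0.00053).

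Most genes of the crypt base fell. Lgr5, the R-spondin receptor that marks cycling stem cells, read -0.61, -1.23, -1.05 and -0.57 on water and -4.80, -4.39 and -4.32 on DSS. It fell 12.4-fold (log2 difference -3.64 ± 0.21 SE, adjusted p = 8.8e-05), and DSS replicate 4 lay beside the other DSS arrays. The stem cell factor Ascl2 fell 4.46-fold and Axin2, a feedback inhibitor of Wnt signalling, 4.70-fold, with DSS values of -3.41, -3.35 and -3.73 against -1.42 to -0.99 on water. In all, 10 of 15 measured genes of this list fell and 3 rose. The largest rise belonged to Nkd1, like Axin2 a Wnt target and feedback inhibitor, from 1.15, 1.26, 1.15 and 1.04 to 3.44, 3.70 and 3.08 (log2 difference 2.26 ± 0.16 SE, adjusted p = 0.00012). Axin2 and Nkd1 therefore moved in opposite directions. Nkd1 is not confined to epithelium, and whole tissue does not give its source.

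Cell cycle and DNA replication genes were lower with little spread. Of 23 measured, 18 fell and none rose, with a median of -1.19 and DSS array medians of -1.07, -1.18 and -1.13 relative to all genes. Mki67, a nuclear protein of dividing cells, read 3.90, 4.13, 3.86 and 3.79 on water and 2.66, 2.15 and 2.77 on DSS (log2 difference -1.39 ± 0.18 SE, adjusted p = 0.00076). Cdk1, the kinase that drives entry into mitosis, had the largest fall, 3.48-fold (log2 difference -1.80 ± 0.25 SE, adjusted p = 0.0011), and its cyclin Ccnb1 fell 3.07-fold. Top2a, the topoisomerase that untangles replicated DNA, read -0.33, 0.37, -0.31 and -0.15 on water and -1.18, -1.65 and -1.20 on DSS (log2 difference -1.24 ± 0.21 SE, adjusted p = 0.0026). The replication factor Mcm2 fell 1.99-fold and the sliding clamp Pcna 1.71-fold. Cdkn1a, an inhibitor of cyclin-dependent kinases, read 2.84, 2.30 and 1.94 on DSS and was not called (adjusted p = 0.16).

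The promoters of the cell cycle genes were read for the CCAAT box, the 5 letters bound by the factor NF-Y (searched as CCAAT on both strands in the 250 bases before the annotated start). It stood in 16 of the 20 members with a promoter in the RefSeq table (80.0%) and in 39.6% of the 11947 measured genes with one. The Top2a promoter (RefSeq, GRCm38.p6, chr11:99024213-99024439, minus strand) held 6 matches, marked in capitals, at 227, 189, 149, 98, 78 and 58 bases before the start. It is printed because it held several of these matches beside a gene that fell on every DSS array.
Top2a: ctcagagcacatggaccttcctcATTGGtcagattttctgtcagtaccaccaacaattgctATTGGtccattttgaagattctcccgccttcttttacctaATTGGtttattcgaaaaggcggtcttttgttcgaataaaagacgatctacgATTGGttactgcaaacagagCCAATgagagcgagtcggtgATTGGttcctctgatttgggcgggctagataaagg
Genes with the box had a median log2 difference of -0.07 and genes without it -0.04. A match is a stretch of letters, not a bound site.

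Genes of wound repair went the other way. Of 16 measured, 7 rose and 1 fell, beside 27.7% and 28.9% of all genes. The filter was passed only through the DSS arrays by 1 of the 16. Ly6a, the surface protein Sca-1 that marks regenerating crypts, read 3.05, 3.17, 2.95 and 3.07 on water and 4.74, 3.79 and 4.87 on DSS (log2 difference 1.41 ± 0.26 SE, adjusted p = 0.0034). Clu, clusterin, a marker of revival stem cells, rose 2.42-fold, with 3.15, 3.39 and 4.09 on DSS against 2.00 to 2.57 on water. Anxa1, an annexin with anti-inflammatory actions, rose 1.45-fold, close to the threshold (adjusted p = 0.043). The largest rise was that of Ereg, epiregulin, a ligand of the epidermal growth factor receptor. It was flagged above background on none of the 4 water arrays and read -2.33, -1.71 and -3.00 on DSS, at least 12.4-fold higher (adjusted p = 0.00019). Several of these genes are also made by fibroblasts and endothelium, so the list is not a measure of epithelium alone.

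Keratins of stratified epithelium were measured through few genes. Of 8 measured of 16 listed, 4 rose and 3 fell. Krt5 and Krt14, the keratin pair of basal cells, rose 4.03-fold and 1.62-fold, with Krt5 at -3.85, -4.20, -4.21 and -4.02 on water and -2.20, -2.10 and -1.89 on DSS (log2 difference 2.01 ± 0.14 SE, adjusted p = 0.00011). The cornified envelope gene Sprr2h had the largest rise (log2 difference 3.89 ± 0.80 SE, adjusted p = 0.0057) and Krt13, a keratin of non-cornified stratified epithelium, the largest fall (log2 difference -2.24 ± 0.41 SE, adjusted p = 0.0034).

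Antimicrobial genes gave the widest range of any list, from -8.18 for Reg4 to 11.76 for Reg3b. Reg3b, a C-type lectin with antibacterial activity, read -3.23, -3.14, -3.65 and -2.54 on water and 8.64, 7.75 and 9.46 on DSS (log2 difference 11.76 ± 0.42 SE, adjusted p = 4.9e-05). Reg3g, which kills Gram-positive bacteria, read -3.91, -2.93, -3.10 and -3.71 and 6.77, 6.00 and 7.02 (log2 difference 10.01 ± 0.33 SE, adjusted p = 4.3e-05). Both genes are also made by pancreatic acinar cells, and pancreatic transcripts were most abundant on DSS replicate 4, where both genes were highest. The pancreas sum was 455 on water replicate 4 and 392 on DSS replicate 2. On those arrays Reg3b read -2.54 and 7.75, and Reg3g -3.71 and 6.00. The part of pancreas in these rises was not tested. Reg4, a lectin of secretory cells at the crypt base, moved the other way, from 6.30, 4.62, 5.10 and 4.99 to -3.80, -4.50 and -0.50 (log2 difference -8.18 ± 0.94 SE, adjusted p = 0.00054). Lcn2, lipocalin, which withholds iron from bacteria, rose 31.5-fold (log2 difference 4.98 ± 0.39 SE, adjusted p = 0.00016). The inducible nitric oxide synthase Nos2 was at least 8.67-fold higher. Other barrier genes were not called: Lypd8, which keeps flagellated bacteria from the mucosa, differed by 0.12 (adjusted p = 0.75), or by -0.49 with a call after quantile scaling (adjusted p = 0.0056), and the local serum amyloid Saa3 by -0.18 (adjusted p = 0.59). Of 17 measured, 7 rose and 3 fell, beside 27.7% and 28.9% of all genes, and 1 had passed the filter only through the DSS arrays.

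**Figure D3:**
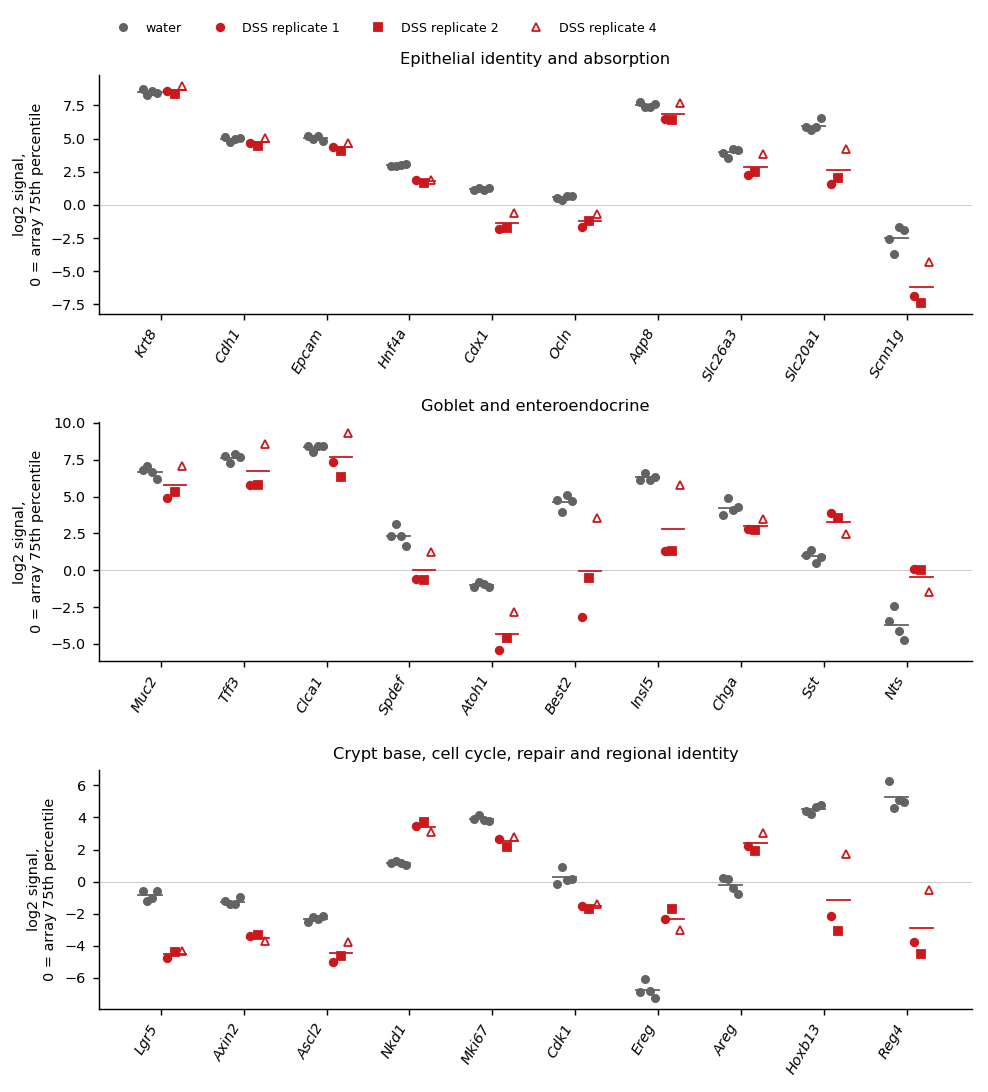
Log2 signal (0 = array 75th percentile) of epithelial genes on each water array (grey) and each DSS array (red), with bars at the group means; DSS replicate 4 is the open triangle. Lgr5, Axin2 and Mki67 were low on all 3 DSS arrays, whereas Muc2, Tff3, Clca1 and Aqp8 on replicate 4 lay at or above the water mean.

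Hox genes, which record position along the gut, shifted between the groups. Of 16 measured, 8 rose and 4 fell, beside 27.7% and 28.9% of all genes, or 5 rose without DSS replicate 2. Hoxb13, a marker of the distal colon, read 4.42, 4.25, 4.64 and 4.81 on water and -2.14, -3.07 and 1.71 on DSS (log2 difference -5.70 ± 1.04 SE, adjusted p = 0.0034). DSS replicate 4 lay between the water arrays and the other DSS arrays. Hoxb5, a gene of the middle of the cluster that is active in the gut wall, had the largest rise, 5.28-fold (log2 difference 2.40 ± 0.27 SE, adjusted p = 0.00048). The posterior genes Hoxd10 (-0.03, adjusted p = 0.94) and Hoxd13 (-0.26, adjusted p = 0.71) were not called. Hoxa13 differed by 0.46 on its brightest probe and through it counts among the 8 that rose. Other probes of the gene were called in the opposite direction, so no direction is otherwise given for it. The labels do not say which stretch of colon was taken, and region and treatment cannot be told apart if the stretches differed.

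Metabolic genes were examined next. Of 40 measured subunits of oxidative phosphorylation, 20 fell and 1 rose (median -0.40). Without DSS replicate 4, 29 fell and 0 rose (median -0.55). The complexes differed in how many of their measured subunits fell. All 4 subunits of complex II, which oxidises succinate, fell, from -0.55 for Sdha to -1.06 for Sdhb. Cyc1, cytochrome c1 of complex III, had the largest fall of the list, from 5.86, 5.98, 6.06 and 5.86 to 4.72, 4.57 and 4.86 (log2 difference -1.22 ± 0.11 SE, adjusted p = 0.00025). None of the 9 measured Cox-named subunits of cytochrome oxidase, complex IV, passed the test, but 6 fell without DSS replicate 4, so this difference between complexes rests on that array. Cox4i1 differed by -0.15 (adjusted p = 0.44). In complex I the core subunit Ndufs1 fell 1.54-fold (adjusted p = 0.0026), while the accessory subunit Ndufb8 differed by -0.33 (adjusted p = 0.12, or 0.011 without DSS replicate 4). Ndufa4, which was not counted among the 9 Cox-named subunits, was the member that rose, 1.28-fold (adjusted p = 0.042 or 0.089). It is not counted with complex I here either.

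The tricarboxylic acid cycle list was lower through 14 of 19 measured genes, and none rose. Idh3a, the catalytic subunit of NAD-dependent isocitrate dehydrogenase, read 3.40, 3.65, 3.48 and 3.48 on water and 1.68, 1.54 and 1.89 on DSS. It fell 3.48-fold (log2 difference -1.80 ± 0.12 SE, adjusted p = 0.00011), and the groups did not overlap. Cs, citrate synthase, fell 1.70-fold (log2 difference -0.77 ± 0.19 SE, adjusted p = 0.011). Pdha1, of the pyruvate dehydrogenase complex that feeds the cycle, fell 1.89-fold (adjusted p = 0.0012) and the pyruvate carrier Mpc1 1.49-fold. Mdh2, malate dehydrogenase, was not called (-0.15, adjusted p = 0.23).

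Fatty acid oxidation genes moved both ways, mostly downward. Of 28 measured genes, 14 fell and 4 rose, or 2 rose without water replicate 2 or 4 or without DSS replicate 1 or 2. Acads, the dehydrogenase of short-chain acids such as butyrate, read 2.64, 2.73, 2.57 and 2.52 on water and 1.52, 1.45 and 1.46 on DSS, a 2.20-fold fall (log2 difference -1.14 ± 0.10 SE, adjusted p = 0.00019). The medium-chain enzyme Acadm fell 1.70-fold (log2 difference -0.76 ± 0.13 SE, adjusted p = 0.0027). For the very-long-chain enzyme Acadvl (-0.13, adjusted p = 0.33) and for Cpt1a, which admits long-chain acids to the mitochondrion (0.00, SE 0.19), no difference was called. Acadl, the long-chain enzyme, had the largest rise, 1.59-fold. Ppargc1a, a coactivator of mitochondrial genes, had the largest fall, from 2.96, 1.74, 2.45 and 2.92 to -0.90, 0.28 and 0.58 (log2 difference -2.53 ± 0.43 SE, adjusted p = 0.0026).

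Genes of sterol and fatty acid synthesis were lower: 20 of 27 measured genes fell and none rose, with a median of -0.79. Without DSS replicate 1 the count was 11, and without DSS replicate 2 it was 9. Hmgcs1, the synthase that starts the mevalonate pathway, read 5.76, 5.66, 5.40 and 4.88 on water and 4.32, 4.22 and 4.48 on DSS (log2 difference -1.09 ± 0.22 SE, adjusted p = 0.0051). Sqle, which opens the sterol branch, fell 2.46-fold (log2 difference -1.30 ± 0.27 SE, adjusted p = 0.0059). Water replicate 4 read lowest of the water arrays for Hmgcs1 and Sqle, nearest to the DSS arrays. Of the fatty acid enzymes, the synthase Fasn fell 1.96-fold (adjusted p = 0.047) and the desaturase Scd2 3.37-fold (adjusted p = 0.00072), while its relative Scd1 was not called (0.57, adjusted p = 0.48). The 9 letters TCACNCCAC of the sterol regulatory element, searched on both strands, stood in the promoter of 1 of 18 members (Hmgcs1) and of 1.30% of all measured genes.

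Of 27 measured genes of glycolysis and the hypoxia response, 7 rose and 1 fell, and 19 were not called. The share that rose was close to that of all genes (27.7%), and fewer fell than among all genes (28.9%). Without DSS replicate 1, or without water replicate 2, 3 or 4, there were 4 that rose. The enzymes of the pathway itself were mostly among those not called: the glucose carrier Slc2a1 differed by 0.21 (adjusted p = 0.34), the hexokinase Hk2 by 0.45 (adjusted p = 0.18) and Ldha, lactate dehydrogenase, by 0.17 (adjusted p = 0.32). The list median was 0.13, and relative to all genes -0.06 with normexp correction. Pfkfb3, which makes the activator of phosphofructokinase, read 0.32, -0.22, -0.16 and -0.11 on water and 4.06, 2.92 and 3.05 on DSS, a 10.5-fold rise (log2 difference 3.39 ± 0.29 SE, adjusted p = 0.00020). The lactate exporter Slc16a3 rose 3.80-fold (log2 difference 1.93 ± 0.46 SE, adjusted p = 0.011), less on replicate 4 (2.20) than on replicates 1 and 2 (4.37 and 3.74). Hk3, a hexokinase of myeloid cells, rose 5.21-fold (adjusted p = 0.0029). Pfkfb4 was the member that fell, 1.99-fold.

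Drug metabolism genes were lower in 17 of 32 measured members and higher in 3. The filter was passed only through the water arrays by 1 of the 32. Ugt2b35, a glucuronosyltransferase, had the largest fall, from 0.62, 0.48, 0.53 and 0.57 to -5.09, -3.73 and -2.71 (log2 difference -4.40 ± 0.49 SE, adjusted p = 0.00049). The phenol sulfotransferase Sult1a1 fell 7.05-fold (log2 difference -2.82 ± 0.44 SE, adjusted p = 0.0017) and Cyp3a13, a cytochrome P450, 2.48-fold (adjusted p = 0.027, or 0.056 without DSS replicate 4). Nr1i2, the pregnane X receptor that induces such genes, fell 2.22-fold (log2 difference -1.15 ± 0.19 SE, adjusted p = 0.0021). Cyp2c55 (-1.67, adjusted p = 0.092 or 0.014) was not called and its neighbour Cyp2c65 rose 3.01-fold (log2 difference 1.59 ± 0.46 SE, adjusted p = 0.023). The largest rise was that of the transferase Ugt2b5, 3.47-fold (adjusted p = 0.037 or 0.075), on 2 water and 3 DSS arrays well above background. For each of the 3 members that rose, the groups overlapped. With all 14 arrays in the fit, 0 members of the list were called higher. Hepatocyte transcripts also were higher on the DSS arrays, and their part in the rising members was not tested.

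Of 30 measured genes of amino acid metabolism, 11 rose and 3 fell, beside 27.7% and 28.9% of all genes. Without DSS replicate 4 the counts were 8 and 6, and the median moved from 0.17 to 0.02. Without water replicate 3 or 4, 7 rose. The member Sat1 counts among the 3 that fell through its brightest probe, but its probes were called in opposite directions. Ido1, which breaks down tryptophan under interferon, had the largest rise, from -2.60, -2.43, -0.89 and 0.87 to 4.83, 3.20 and 1.38 (log2 difference 4.40 ± 1.07 SE, adjusted p = 0.011). Its water arrays spread over more than 3 log2 units, and the groups did not overlap. Arg1, the arginase of alternatively activated macrophages, rose 7.87-fold (log2 difference 2.98 ± 0.30 SE, adjusted p = 0.00033) and its mitochondrial counterpart Arg2 1.61-fold (adjusted p = 0.046, or 0.12 without DSS replicate 4). Shmt1, a serine hydroxymethyltransferase of folate metabolism, had the largest fall, 5.42-fold (log2 difference -2.44 ± 0.28 SE, adjusted p = 0.00051). Mthfd2, a mitochondrial folate enzyme, was not called (0.47, adjusted p = 0.40).

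The unfolded protein response was close to all genes (median 0.07, and -0.10 relative to all genes with normexp correction), and 18 of 23 measured genes were not called. Of the rest, 3 rose and 2 fell, or 4 and 5 without DSS replicate 4. Hspa5, the chaperone BiP, differed by 0.35 (adjusted p = 0.19), Atf4, the factor of the integrated stress response, by 0.22 (adjusted p = 0.16), and Xbp1, the factor of the secretory stress pathway, fell 1.32-fold at the threshold (adjusted p = 0.049). Ern2, the stress sensor confined to mucus-secreting epithelium, had the largest fall, from 1.61, 1.79, 1.50 and 1.35 to -2.59, -2.30 and -0.48 (log2 difference -3.35 ± 0.48 SE, adjusted p = 0.0013), and its general counterpart Ern1 was not called (-0.13, adjusted p = 0.74 or 0.045). Chac1, a glutathione-degrading target of the stress response, had the largest rise (log2 difference 1.55 ± 0.40 SE, adjusted p = 0.015).

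**Figure D4:**
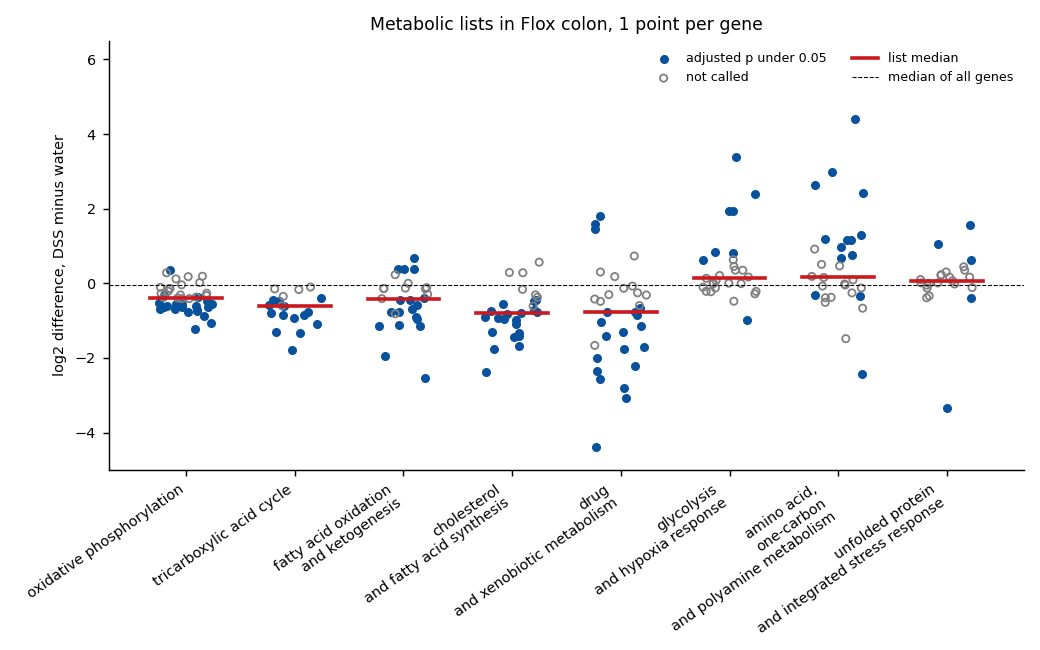
Log2 difference, DSS minus water, of each measured gene in 8 metabolic lists; filled points were called at adjusted p under 0.05, open points were not, red bars are list medians and the dashed line is the median of all genes (-0.04). The mitochondrial and sterol lists lie below the line with few called genes above it, whereas called genes of amino acid metabolism and glycolysis lie mostly above. The share of glycolysis genes that rose was close to that of all genes (27.7%).

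The median of every stromal list lay above that of all genes. Of 29 measured matrix genes 24 rose and none fell, or 1 fell without DSS replicate 4 (median 1.39). Col1a1, a chain of the main fibrillar collagen, read 2.68, 2.42, 2.38 and 2.65 on water and 3.93, 4.14 and 3.82 on DSS (log2 difference 1.43 ± 0.13 SE, adjusted p = 0.00024). Col3a1, of reticular fibres, rose 2.44-fold and Col4a1, of basement membranes, 3.50-fold (log2 difference 1.81 ± 0.14 SE, adjusted p = 0.00014). DSS replicate 4 lay close to the other DSS arrays for these collagens. Lum, lumican, a proteoglycan that orders collagen fibrils, had the largest rise, 5.35-fold (log2 difference 2.42 ± 0.24 SE, adjusted p = 0.00033). Lox, which cross-links collagen, rose 4.71-fold. Postn, periostin, a matrix protein of activated fibroblasts, was not called (-0.12, adjusted p = 0.57).

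Of 23 measured fibroblast genes, 16 rose and 3 fell, and 1 of the 23 had passed the filter only through the water arrays. Grem1, a secreted inhibitor of bone morphogenetic proteins, had the largest rise, from 0.87, 1.13, 0.97 and 0.68 to 5.83, 5.73 and 5.10 (log2 difference 4.64 ± 0.20 SE, adjusted p = 6.1e-05). Rspo3, the R-spondin that strengthens Wnt signals at the crypt base, rose 8.98-fold (log2 difference 3.17 ± 0.22 SE, adjusted p = 0.00011). Bmp5, a bone morphogenetic protein of crypt-top fibroblasts, had the largest fall, from -2.10, -1.74, -1.65 and -1.81 to -4.85, -5.22 and -3.15 (log2 difference -2.58 ± 0.47 SE, adjusted p = 0.0033). The related ligand Bmp4 was not called (-0.13, adjusted p = 0.66). Pdgfra, the receptor that defines intestinal fibroblasts, rose 2.11-fold (log2 difference 1.08 ± 0.11 SE, adjusted p = 0.00036), and the surface glycoprotein Pdpn 3.09-fold. Il11, a fibroblast cytokine of the interleukin 6 family, read -3.81, -4.17, -3.71 and -3.57 on water and -0.85, -0.54 and -0.44 on DSS (log2 difference 3.20 ± 0.18 SE, adjusted p = 7.8e-05). Wnt5a was well above background on 2 arrays of each group and was not called (adjusted p = 0.17, or 0.016 without DSS replicate 4).

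Matrix proteases and their inhibitors rose in 18 of 22 measured genes, and none fell. Of the 22, 1 had passed the filter only through the DSS arrays. Mmp3, stromelysin, had the largest rise, from -1.97, -1.24, -2.22 and -2.64 to 6.10, 5.72 and 4.17 (log2 difference 7.35 ± 0.51 SE, adjusted p = 0.00012). Its relative Mmp10 rose 16.8-fold and Mmp2, a gelatinase of fibroblasts, 1.78-fold. The gelatinase of neutrophils, Mmp9, was not called (0.62, adjusted p = 0.072). Its groups did not overlap, which held upward for 29.2% of all genes. Timp1, an inhibitor of these proteases, rose 27.4-fold (log2 difference 4.77 ± 0.20 SE, adjusted p = 6.1e-05) and Timp3 1.47-fold. Adamts1 and Adamts4, which cut proteoglycans, rose 16.2-fold and 10.8-fold.

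Smooth muscle genes were higher as well. Of 20 measured smooth muscle genes, 18 rose and 1 fell. Acta2, smooth muscle actin, read 7.25, 6.90, 6.77 and 6.59 on water and 8.22, 7.93 and 8.70 on DSS (log2 difference 1.41 ± 0.23 SE, adjusted p = 0.0020). The enteric form Actg2 rose 2.16-fold (adjusted p = 0.026, or 0.059 without DSS replicate 4) and the myosin Myh11 2.53-fold (adjusted p = 0.0020). DSS replicate 4 was the highest DSS array for these 3 genes. Cald1, caldesmon, had the largest rise (5.82-fold) and Casq2, a calcium store protein, was the member that fell (2.19-fold).

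All 18 measured genes of enteric neurons, glia and pacemaker cells were called, 17 upward and 1 downward, beside 27.7% and 28.9% of all genes, and 5 listed genes were not measured. Elavl4, an RNA-binding protein of neurons, read 0.01, -0.07, -0.32 and -0.57 on water and 2.69, 2.42 and 2.08 on DSS (log2 difference 2.63 ± 0.20 SE, adjusted p = 0.00014). The neuronal hydrolase Uchl1 rose 5.36-fold, the synaptic protein Snap25 4.35-fold and the relaxing transmitter Vip 5.02-fold. Glial genes rose too: S100b read 0.19, 0.26, 0.05 and 0.04 on water and 2.55, 2.31 and 2.34 on DSS (log2 difference 2.27 ± 0.11 SE, adjusted p = 7.3e-05), and Gfap, a filament protein of activated glia, had the largest rise, 33.5-fold (log2 difference 5.06 ± 0.36 SE, adjusted p = 0.00012). The gene that fell was Ano1, the chloride channel of pacemaker cells, by 2.69-fold (log2 difference -1.43 ± 0.20 SE, adjusted p = 0.0012), which is also made by other cells. Smooth muscle, nerve and mesothelium are all found in the outer layers, but muscle and nerve genes are not confined to them. On DSS replicate 4 the mesothelium sum was 1.69 against 19.2 and 23.1 on the other DSS arrays, while Acta2 and S100b were as high there as elsewhere. On water replicate 4 the mesothelium sum (0.817), Acta2 and S100b were each lowest of the water arrays. Elavl4 was lowest on replicate 4 in both groups. The part of outer-layer content in these rises was not tested.

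Of 21 measured vessel genes, 13 rose and none fell. Selp, P-selectin, on which leukocytes roll, had the largest rise, from -4.89, -4.89, -4.73 and -4.85 to -0.86, -1.52 and -1.30 (log2 difference 3.61 ± 0.16 SE, adjusted p = 6.7e-05). The adhesion receptor Icam1 rose 3.79-fold. Pan-endothelial genes moved less: Cdh5 rose 2.78-fold (log2 difference 1.48 ± 0.20 SE, adjusted p = 0.0011) and Vwf 2.14-fold, while Pecam1 (0.28, adjusted p = 0.12) and the growth factor receptor Kdr (0.18, adjusted p = 0.57) were not called. Lyve1, of lymphatic endothelium and some macrophages, rose 2.73-fold.

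Adipocyte genes were higher in 6 of 13 measured members with wide spread, and 1 fell without DSS replicate 4. Adipoq, adiponectin, made by fat cells alone, read 2.44, 1.17, 1.30 and 0.82 on water and 1.55, 3.54 and 2.65 on DSS, overlapping and not called (adjusted p = 0.11). Fabp4, the fatty acid carrier of adipocytes and macrophages, rose 4.30-fold (adjusted p = 0.0031), and Plin4, a lipid droplet protein, had the largest rise (log2 difference 3.21 ± 0.33 SE, adjusted p = 0.00035). Plin1, particular to fat cells, was not called (adjusted p = 0.24). The listed genes of mesothelium, skeletal muscle and red cells included 3 that rose and 2 that fell of 12 measured, and 8 that rose without DSS replicate 4. Wt1, of mesothelium, rose 12.3-fold (log2 difference 3.62 ± 0.95 SE, adjusted p = 0.015), Upk3b was not called (adjusted p = 0.33 or 0.029), and Myh2, a myosin of skeletal muscle, had the largest fall (log2 difference -3.53 ± 0.76 SE, adjusted p = 0.0068) while Ckm, muscle creatine kinase, rose 4.21-fold.

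The immune lists were led by neutrophils. Of 20 measured neutrophil genes 19 rose and none fell (median 3.86), and 2 of them had entered the test only through the DSS arrays. The median was 1.95 with normexp correction. It was 2.11 over the 9 genes well above background on all 7 arrays, of which 8 rose. S100a9, a subunit of calprotectin, read -3.96, -3.54, -2.41 and -1.78 on water and 5.93, 5.13 and 4.41 on DSS (log2 difference 8.08 ± 0.59 SE, adjusted p = 0.00013). Its partner S100a8 rose 153-fold (log2 difference 7.26 ± 0.49 SE, adjusted p = 0.00011). Csf3r, the receptor of the growth factor that drives neutrophil production, rose 8.06-fold (log2 difference 3.01 ± 0.36 SE, adjusted p = 0.00063), and the chemokine receptor Cxcr2 was at least 8.34-fold higher. Mpo, the peroxidase loaded into granules in the marrow, rose 1.79-fold (adjusted p = 0.038, or 0.10 without DSS replicate 4). For S100a9, S100a8 and Cxcr2, DSS replicate 4 was the lowest DSS array and still above every water array.

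Of 26 measured genes of monocytes and macrophages, 19 rose and 1 fell. Adgre1, the F4/80 antigen of tissue macrophages, read 0.94, 1.56, 1.42 and 1.47 on water and 1.85, 2.64 and 1.60 on DSS and was not called (adjusted p = 0.069, or 0.029 without DSS replicate 4). Cd68, a lysosomal protein of macrophages, rose 2.72-fold (log2 difference 1.44 ± 0.22 SE, adjusted p = 0.0015), and the growth factor receptor Csf1r 1.65-fold (adjusted p = 0.024). Ccr2, the receptor of recruited monocytes, rose 5.09-fold (log2 difference 2.35 ± 0.20 SE, adjusted p = 0.00018), whereas Cx3cr1, of resident macrophages, differed by -0.95 (adjusted p = 0.10). Spp1, osteopontin, had the largest rise, from -4.58, -4.71, -4.72 and -3.84 to 0.80, 1.06 and 2.25 (log2 difference 5.83 ± 0.39 SE, adjusted p = 0.00011), followed by the chitinase-like Chil3 (50.9-fold). Mertk, a receptor for the uptake of dying cells, was the member that fell, 2.44-fold.

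Of 17 measured genes of dendritic cells and MHC class II, 3 rose and 14 were not called. Without DSS replicate 4, 5 rose and 1 fell. Of the 17, 1 had passed the filter only through the water arrays. H2-Ab1, a class II chain, read 3.80, 3.87, 4.27 and 4.61 on water and 4.58, 5.28 and 3.89 on DSS (adjusted p = 0.31). Itgax, the CD11c antigen, differed by -0.48 (adjusted p = 0.13), Flt3, the receptor of dendritic progenitors, by 0.35 and the migration receptor Ccr7 by 0.44. Cd80, a costimulator that entered the test only through the DSS arrays, was at least 3.56-fold higher. Within slides 1, 2 and 4 the list median was 0.84, 0.70 and -0.33. For class I, 8 of 15 rose and 1 fell. Tap1, which carries peptides to class I molecules, read -1.28, -1.21, -1.34 and -0.91 on water and 1.62, 0.49 and -0.53 on DSS (log2 difference 1.71 ± 0.45 SE, adjusted p = 0.016), and the immunoproteasome subunit Psmb8 rose 2.65-fold (log2 difference 1.40 ± 0.29 SE, adjusted p = 0.0056). The class I chain H2-K1 (0.07, adjusted p = 0.63) and B2m (0.70, adjusted p = 0.071, or 0.0045 without DSS replicate 4) were not called. Erap1, which trims the peptides, was the member that fell, 1.34-fold.

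Of 20 measured T and natural killer cell genes of 29 listed, 3 rose and 4 fell, and their median (-0.08) was near that of all genes. The filter was passed only through the DSS arrays by 1 of the 20 and only through the water arrays by 1. Relative to all genes the median was 0.37 with normexp correction, and 0.46, 0.20 and -0.87 within slides 1, 2 and 4. Cd3e, of the T cell receptor complex, read -5.12, -4.47, -4.62 and -4.25 on water and -4.77, -4.69 and -3.47 on DSS (adjusted p = 0.50). Cd4 (-0.25, adjusted p = 0.63, or 0.040 without DSS replicate 4) and Cd8a (-1.29, adjusted p = 0.15) were well above background on 1 DSS array each and not called. Ifng, interferon gamma, was above background on no water array and read 1.29, -1.12 and -2.24 on DSS, at least 40.0-fold higher (adjusted p = 0.00095). Il22, the cytokine of barrier repair, spread from -5.63 to -0.99 on DSS and was not called (adjusted p = 0.072). The adhesion receptor Cd2 fell 3.36-fold (log2 difference -1.75 ± 0.39 SE, adjusted p = 0.0082). The costimulatory receptor Cd28, not well above background on any DSS array, was at least 1.01-fold lower, and after normexp correction it differed by 0.36 without a call.

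B and plasma cell genes were the lowest list of all, with a median of -2.45: 15 of 19 measured fell and none rose. The count was 6 without DSS replicate 2, 8 without DSS replicate 1 and 9 without water replicate 2 or 3. Of the 19, 2 had passed the filter only through the water arrays. With normexp correction the median was -1.27, above that of the goblet list (-1.62). Mzb1, a plasma cell protein of antibody secretion, had the largest fall, from 1.31, 1.60, 1.89 and 1.72 to -3.99, -3.76 and -0.88 (log2 difference -4.50 ± 0.72 SE, adjusted p = 0.0020). Jchain, which joins the units of IgA, read 5.77, 6.14, 6.56 and 6.45 and 1.50, 1.67 and 4.13 (log2 difference -3.80 ± 0.63 SE, adjusted p = 0.0023). Ms4a1, the B cell surface protein CD20, fell 8.83-fold, from 0.81, 1.15, 1.54 and 1.60 to -3.56, -2.75 and 0.72 (log2 difference -3.14 ± 0.94 SE, adjusted p = 0.026). The size of the fall differed between animals: the list median relative to all genes was -3.85 and -3.23 on replicates 1 and 2 and -0.58 on replicate 4. Within slides 1, 2 and 4 it was -3.46, -3.18 and -1.0. Cd79a, of the B cell receptor, was not called (-0.49, adjusted p = 0.52). Mast cell genes were few: of 7 measured, the chymase Mcpt4 and the histamine-forming Hdc rose 2.16-fold and 22.1-fold, Cma1 fell 2.67-fold, and Mcpt1 was not called (adjusted p = 0.055). Hdc, the largest of these, is also active in neutrophils.

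Interferon-response genes were higher on every DSS array. Of 27 measured 24 rose and none fell (median 2.93), with array medians relative to all genes of 3.94, 3.11 and 1.81. Cxcl10, which attracts T cells, rose 17.7-fold from -1.54, -1.57, -2.26 and -0.81 to 3.82, 2.51 and 1.47 (adjusted p = 0.0010), and the guanylate-binding protein Gbp2 7.61-fold (log2 difference 2.93 ± 0.56 SE, adjusted p = 0.0043). The antiviral genes Isg15 and Ifit1 rose 8.22-fold and 12.1-fold. Iigp1, a GTPase against intracellular pathogens, had the largest rise (log2 difference 4.66 ± 0.71 SE, adjusted p = 0.0016). Irf1 rose 1.74-fold (adjusted p = 0.028), while Irf7 (0.53, adjusted p = 0.16, or 0.0064 without DSS replicate 4) was not called. For Cxcl10, Gbp2, Isg15, Ifit1 and Iigp1, DSS replicate 1 was the highest DSS array and replicate 4 the lowest, above every water array.

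Some of the promoters of these genes carried a shared motif, and 4 of those with a match are shown. The interferon-stimulated response element, searched on both strands as a pair of TTTC with any 2 bases between them, in the 250 bases before the start, stood in 11 of the 20 members with a promoter in the table (55.0%) and in 3.26% of all measured genes with one. The stretches below are from RefSeq (GRCm38.p6), 5′ to 3′ on the strand of the gene, with the matches in capitals, which read as a pair of GAAA where the motif lies on the other strand. Isg15 (chr4:156200845-156200926, minus strand) held 3 overlapping matches, Ifit1 (chr19:34640755-34640843, plus strand) held 2, and Gbp2 (chr3:142620574-142620643, plus strand) and Cxcl10 (chr5:92349063-92349132, minus strand) held 1 each.
Isg15: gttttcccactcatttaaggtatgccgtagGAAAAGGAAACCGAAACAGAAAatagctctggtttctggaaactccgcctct
Ifit1: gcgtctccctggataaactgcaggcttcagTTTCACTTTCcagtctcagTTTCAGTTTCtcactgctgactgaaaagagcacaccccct
Gbp2: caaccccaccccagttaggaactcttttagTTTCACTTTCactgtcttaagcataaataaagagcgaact
Cxcl10: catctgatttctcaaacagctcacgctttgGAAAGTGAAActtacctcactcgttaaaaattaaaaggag
Over all measured genes, those with the motif had a median log2 difference of 0.14 and those without -0.06. These medians are descriptions, and no binding was measured.

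Complement and acute phase genes were higher in 20 of 25 measured members and none fell, and 2 members had passed the filter only through the DSS arrays. C3, the hub of the complement cascade, read 4.94, 4.53, 4.92 and 3.89 on water and 8.71, 8.61 and 6.52 on DSS (log2 difference 3.37 ± 0.56 SE, adjusted p = 0.0024), and C4b, of the classical pathway, rose 5.17-fold. Cfb, of the alternative pathway, was not called (0.33, adjusted p = 0.28, or 0.041 without DSS replicate 4). Hp, haptoglobin, which binds free haemoglobin, had the largest rise, from -1.09, -2.35, -1.79 and -2.02 to 6.18, 6.96 and 5.99 (log2 difference 8.19 ± 0.35 SE, adjusted p = 6.1e-05). The fibrinogen chain Fgb was flagged above background on none of the 4 water arrays and was at least 94.5-fold higher on DSS. Ptx3, a pentraxin made by stroma and myeloid cells, rose 139-fold (log2 difference 7.12 ± 0.38 SE, adjusted p = 7.8e-05). Hepatocytes are the main source of haptoglobin and fibrinogen. The sum of the hepatocyte genes was also higher on DSS (11.3 to 27.6 against 2.72 to 4.79). That sum weighs the brightest probes most. Single hepatocyte genes differed by 1.28 (Tat), 4.55 (Alb) and 5.54 (Ahsg) on the log2 scale, while Ttr and Cps1 were lower. The part of hepatocytes in the rises of Hp and Fgb was not tested. Saa1, another acute phase gene, was not called (-0.07, adjusted p = 0.87).

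Among cytokines and their receptors, 17 of 26 measured rose and 3 fell. The filter was passed only through the DSS arrays by 2 and only through the water arrays by 1. Il6 was flagged above background on none of the 4 water arrays and read -0.05, -0.44 and 0.02 on DSS, at least 57.8-fold higher (adjusted p = 2.7e-05). Il1b, which the inflammasome matures, read -3.66, -2.74, -3.07 and -2.39 on water and 3.00, 2.62 and 1.94 on DSS (log2 difference 5.49 ± 0.36 SE, adjusted p = 0.00010). Its antagonist Il1rn was not called (-0.05, adjusted p = 0.82). Tnf rose 6.99-fold (log2 difference 2.80 ± 0.47 SE, adjusted p = 0.0025). The alarmin Il33 rose 19.1-fold and its receptor Il1rl1 4.68-fold. Osm and its receptor Osmr rose 3.03-fold and 10.3-fold. Il18, an epithelial member of the interleukin 1 family, fell 2.81-fold (log2 difference -1.49 ± 0.52 SE, adjusted p = 0.044). Il22ra2, the soluble trap of interleukin 22, was not well above background on any DSS array, at least 7.46-fold lower, the largest fall of the list.

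Of 28 measured chemokine and receptor genes 17 rose and 2 fell. Without DSS replicate 4 there were 7 that fell, and 2 members had passed the filter only through the DSS arrays. Cxcl1 and Cxcl5, which attract neutrophils through Cxcr2, read 0.59, -0.73 and -0.54 and 2.00, 0.23 and -0.11 on DSS and rose 30.4-fold and 59.7-fold (adjusted p = 0.00075 and 0.00073). Cxcl2 was above background on no water array and was at least 6.56-fold higher. Ccl2, which draws monocytes, rose 45.7-fold (log2 difference 5.52 ± 0.29 SE, adjusted p = 7.8e-05), and Ccl4 had the largest rise (log2 difference 6.17 ± 0.60 SE, adjusted p = 0.00030). Ccl20, an epithelial chemokine for B cells and dendritic cells, had the largest fall, from 0.41, -1.17, -0.95 and -0.15 to -3.38, -2.99 and -1.31 (log2 difference -2.09 ± 0.58 SE, adjusted p = 0.020). Its receptor Ccr6 (-2.01, adjusted p = 0.056 or 0.00011) and the mucosal chemokine Ccl28 (-1.16, adjusted p = 0.079 or 0.0026) were called without DSS replicate 4 and not with it.

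The promoters of Cxcl1 and Cxcl2 are shown because they held the same NF-kB letters near the start. Searched on both strands as GGGA, any 2 bases and TTCC, the motif stood in 3 of 20 members with a promoter (15%: Cxcl1, Cxcl2 and Cxcl3) and in 1.50% of all measured genes. Capitals mark 2 overlapping matches, 1 on each strand, in Cxcl1 (chr5:90891144-90891214, plus strand) and in Cxcl2 (chr5:90903772-90903842, plus strand).
Cxcl1: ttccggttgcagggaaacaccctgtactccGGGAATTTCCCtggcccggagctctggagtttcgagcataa
Cxcl2: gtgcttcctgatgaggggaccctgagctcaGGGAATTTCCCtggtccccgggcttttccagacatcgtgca
The 11 letters in capitals were identical in both genes. Across all measured genes those with the motif had a median of 0.01 and those without -0.06.

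Regulators of inflammatory transcription rose in 14 of 26 measured members and fell in 2. Socs3, the feedback inhibitor of interleukin 6 signalling, had the largest rise, from 0.75, 1.03, 1.02 and 0.94 to 5.76, 5.06 and 5.58 (log2 difference 4.53 ± 0.18 SE, adjusted p = 5.3e-05). Stat3, the factor it restrains, rose 4.81-fold (log2 difference 2.27 ± 0.15 SE, adjusted p = 0.00010), and Cebpb, an acute phase factor, 9.05-fold. Nfkbia, the inhibitor that NF-kB induces, rose 2.19-fold (log2 difference 1.13 ± 0.20 SE, adjusted p = 0.0031), while Tnfaip3 (0.20, adjusted p = 0.44) and Nfkbiz (0.62, adjusted p = 0.21) were not called. Fos (-0.58) and Myc (-0.31) did not pass. Among sensors of microbes, 10 of 23 measured rose and 3 fell, beside 27.7% and 28.9% of all genes. Tlr2, which senses bacterial lipoproteins, read 0.70, 0.70, 0.64 and 0.55 on water and 1.79, 1.83 and 1.29 on DSS (log2 difference 0.99 ± 0.15 SE, adjusted p = 0.0017), the adaptor Myd88 rose 2.14-fold, and Tlr4, the receptor of endotoxin, was not called (0.48, adjusted p = 0.062, or 0.0033 without DSS replicate 4). Zbp1, a sensor of nucleic acids that interferon induces, had the largest rise (14.7-fold), and Tlr1, the partner of Tlr2, the largest fall, from 2.57, 2.26, 2.52 and 2.58 to 0.34, 0.69 and 1.40 (log2 difference -1.67 ± 0.25 SE, adjusted p = 0.0014). Casp1, the inflammasome protease, fell 2.03-fold, while Casp4, of the non-canonical inflammasome, rose 1.94-fold.

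**Figure D5:**
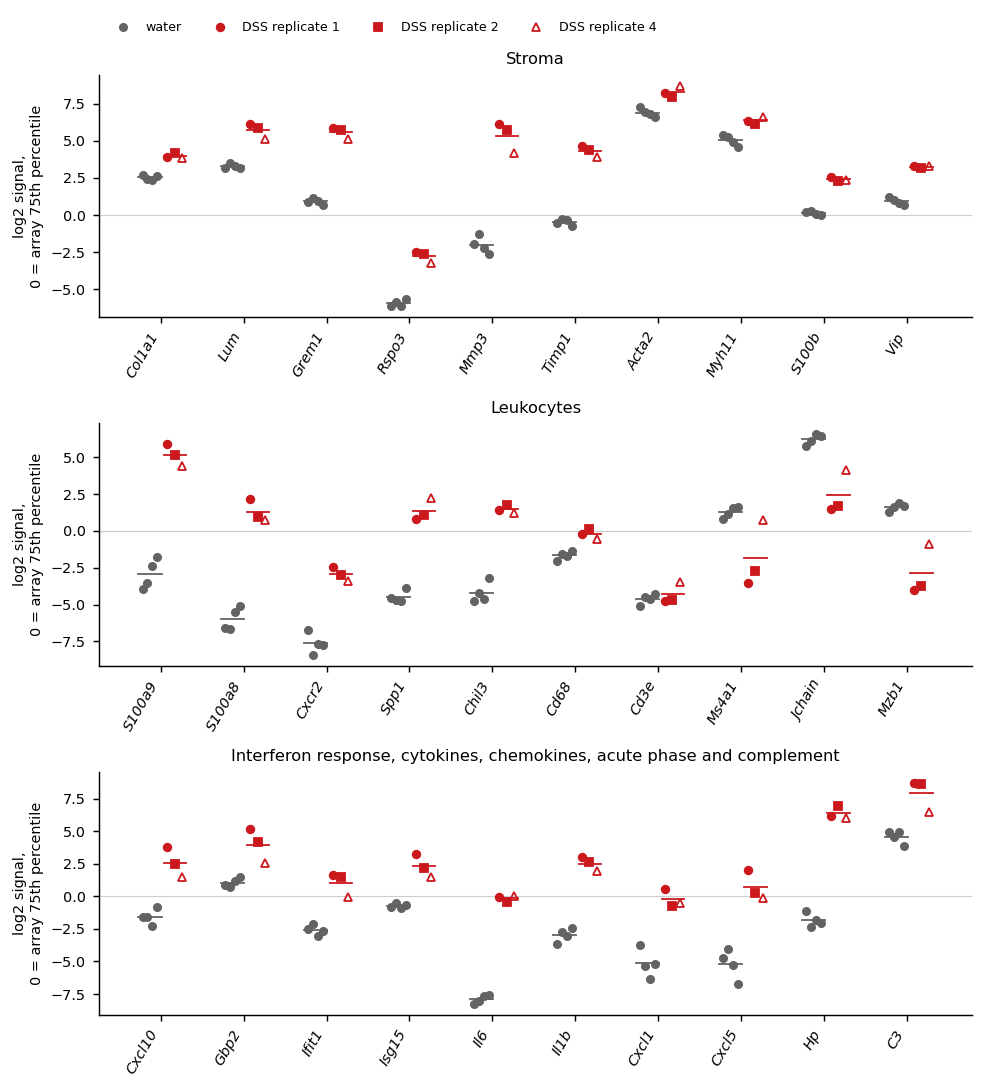
Log2 signal (0 = array 75th percentile) of stromal and immune genes on each water array (grey) and each DSS array (red), with bars at the group means; DSS replicate 4 is the open triangle. Stromal, neutrophil and interferon genes were higher on all 3 DSS arrays, Cd3e overlapped between the groups, and Ms4a1, Jchain and Mzb1 were lower on replicates 1 and 2 than on replicate 4.

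Of the 15 largest rises outside the lists, 6 were Reg or pancreatic genes whose highest value lay on DSS replicate 4, as did the pancreas sum: Reg3a (at least 1667-fold), Reg2 (log2 difference 10.69 ± 2.36 SE, adjusted p = 0.0077), Reg3d (log2 difference 8.71 ± 1.79 SE, adjusted p = 0.0057), the trypsinogen Prss2 (log2 difference 6.64 ± 2.30 SE, adjusted p = 0.044 or 0.12) and the digestive genes Pnliprp1 and Ctrb1. The last of these read 5.56, 4.05 and 9.25 and 4.35, 3.06 and 8.78 on DSS, and Pnliprp1 was not called without DSS replicate 4 (adjusted p = 0.069). Wfdc12, a protease inhibitor of the whey acidic protein family, was lowest of the DSS arrays on replicate 4 and read -5.44, -5.51, -6.44 and -5.55 on water and 3.88, 3.91 and 2.36 on DSS (log2 difference 9.12 ± 0.44 SE, adjusted p = 7.2e-05). Its relative Wfdc21 was at least 32.3-fold higher and the cytokine Il19 at least 29.7-fold. Chrdl2, an inhibitor of bone morphogenetic proteins, rose 74.9-fold with little spread (log2 difference 6.23 ± 0.33 SE, adjusted p = 7.8e-05), in the direction of Grem1. The liver genes Serpina3k, Cyp3a44 and Cyp3a16 entered the test only through the DSS arrays and were at least 20.4-fold, 18.0-fold and 13.3-fold higher, and Cyp3a41a rose 57.2-fold, beside the higher hepatocyte sums on DSS, whose part was not tested. Chil1, a chitinase-like protein of macrophages and injured epithelium, rose 53.8-fold.

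Of the 15 largest falls outside the lists, that of Fxyd4, a regulator of the sodium pump, was the largest, from 4.51, 3.68, 3.67 and 5.39 to -7.51, -4.90 and 1.35 (log2 difference -8.00 ± 1.90 SE, adjusted p = 0.010). Nxpe2 read 3.60, 2.78, 3.25 and 3.10 on water and -3.22, -1.64 and -2.14 on DSS, with no overlap (log2 difference -5.51 ± 0.38 SE, adjusted p = 0.00011). Tgm3, a transglutaminase, fell 43.9-fold (log2 difference -5.46 ± 1.34 SE, adjusted p = 0.012), less on replicate 4 (2.19) than on replicates 1 and 2 (-3.61 and -3.41). Carriers and channels among them were Slc30a10 (manganese, -4.79), Slc37a2 (-4.78) and Trpv6 (calcium, -4.30). Cytochrome P450 genes among them were Cyp2c40 (-5.12), Cyp2c39 (-4.82) and Cyp2f2 (-4.47). Mptx1, a mucosal pentraxin, fell 32.4-fold, and Nox1, the epithelial NADPH oxidase of the colon, was at least 6.33-fold lower. Higd1c, Tmprss13, D630039A03Rik and AI854703 completed the set.

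The response was finally set beside that of GR iKO colon, which shares no array with it. The targeted gene came first: the brightest Nr3c1 probe read 1.05 to 1.38 on Flox water and 1.07 to 1.46 on Flox DSS arrays, against 0.19 to 0.57 and 0.37 to 0.48 on the GR iKO arrays. The receptor transcript was not called between water and DSS in Flox colon (log2 difference 0.07, adjusted p = 0.67). A test of the difference between both responses called 68 of 28131 probes (0.242%) and 38 genes (0.253%), with 5551 probes at unadjusted p under 0.05. No probe was called when water and DSS arrays had separate variances or when slides were blocked. Of the list members, 8 were called, and all were smaller or more negative in Flox. On the log2 scale Il11 rose by 3.20 in Flox and 5.64 in GR iKO, the activin chain Inhba 0.90 and 3.63, the collagenase Mmp13 2.08 and 5.57, and the granule protein Ltf 4.02 and 8.26. For Plau, the urokinase, the differences were 0.46 and 1.95, for Itgax -0.48 and 1.28, for the costimulatory receptor Cd40 0.89 and 2.51, and for Il1rn -0.05 and 2.17.

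List medians of both genotypes are given side by side without a test. Neutrophil genes had a median of 3.86 in Flox and 6.06 in GR iKO, and MHC class II and dendritic cell genes 0.40 and 1.19, with 3 and 12 members higher. Smooth muscle genes had 1.40 and 0.16, with 18 and 6 higher. B and plasma cell genes had -2.45 and -0.57, with 15 and 5 lower. Cell cycle genes had -1.19 and -0.57, with 18 and 3 lower. With all 14 arrays in the fit the Flox count of lower cell cycle genes was 15, and the other Flox counts given here did not change. The tricarboxylic acid cycle list had -0.60 and -0.70, and the drug metabolism list -0.78 and -1.06. The pancreas list had a median of 5.90 in Flox and -1.83 in GR iKO, and its part in any of these differences was not tested.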

How the data were processed

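Total RNA (500 ng) from whole colon of separate mice was labelled with Cy3 and hybridised, 1 mouse per array, to Agilent 4x44 mouse arrays. The authors deposited scanner files whose intensity values (processed signals) are background-subtracted, with Feature Extraction 12.0.0.7 per the file headers. A table of log2 values deposited by the authors was used as an alternative only, and the submitters' notes name Partek 6.6. Here each array's log2 processed signal was reduced by its 75th percentile over non-control probes. Probes that the scanner flagged above background in 3 or more of the 7 Flox arrays were tested with limma 3.58.1 (R 4.3.3), moderated by eBayes and adjusted by Benjamini-Hochberg, after a check on simulated data. A gene was read from its probe of highest mean signal. An "at least" fold compares a group with the lowest signals well above background. Members and lists were chosen with earlier results of these data known, and lists of neighbouring tissues were added after the data were seen. Named genes were the first key members of each list, the largest called rise and fall in it, and the 15 largest rises and falls outside the lists. A few further members were named after their values were seen. Alternatives were other background corrections, scalings, filters, weights, blocks and leaving out each array. Some members of the lists count in the totals but are not reported here by name.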

Additional observations from a re-analysis of the deposited data

Results flagged for a closer look

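Among the 4 water arrays, 14 of the 276 named genes had 1 array far from the other 3 by Dixon's test, about the 1 in 20 that chance gives. In log2 signal, water replicate 1 was far below the rest for Cyp3a44 (-8.66). Water replicate 2 was far above the rest for Dclk1 (-0.27), Il22 (-3.24) and Trpm5 (-1.52). Water replicate 2 was far below the rest for Clca1 (8.05), Hoxa13 (-2.01), Il18 (3.33) and Serpina3k (-8.03). Water replicate 3 was far below the rest for Wfdc12 (-6.44). Water replicate 4 was far above the rest for Mpo (-4.32), Myd88 (1.71) and Spp1 (-3.84). Water replicate 4 was far below the rest for Upk3b (-4.60) and Wt1 (-6.75).

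The response to DSS differed between GR iKO and Flox colon in 8 named genes by the interaction term of limma. The GR iKO difference exceeded the Flox difference, on the log2 scale, for Cd40 by 1.62 (adjusted p = 0.0394), Il11 2.43 (adjusted p = 0.0279), Il1rn 2.22 (adjusted p = 0.0352), Inhba 2.74 (adjusted p = 0.0352), Itgax 1.76 (adjusted p = 0.0494), Ltf 4.24 (adjusted p = 0.0495), Mmp13 3.49 (adjusted p = 0.0495) and Plau 1.49 (adjusted p = 0.0498). None was called with separate variances for water and DSS arrays or with slides as a block.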

How the results depend on the processing

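The number of probes called stayed within 1.5 times of 15482 under every alternative run except scaling to spike-in transcripts, which gave 25668, because it adds a constant to every difference. Leaving out 1 array at a time gave 12846 to 16776. Of the 210 named genes called, 173 were called under every alternative run. Of the 40 list medians, 36 stayed on their side of the median of all genes with normexp correction, 38 with probes well above background on all 7 arrays, where the squamous list turned to -0.030, and 39 or 40 otherwise, leaving out 1 array included. Genes whose difference changed sign were, apart from Cd28, not called in the fit reported. With normexp correction they were Cd28 (0.36), Cd4 (0.53), Cd79a (0.37), Cd8a (0.22), Cpt1a (-0.058), Ern1 (0.048), H2-K1 (-0.00210), Hoxd10 (0.36) and Mcpt1 (0.19). With array weights they were Bmp4 (0.0080), Cd3e (-0.015), Cpt1a (-0.21), Krt8 (-0.031) and Lypd8 (-0.20). With quantile scaling they were Dclk1 (-0.00272), Krt8 (-0.49) and Lypd8 (-0.49), and with the deposited values Dclk1 (-0.00515), Krt8 (-0.47) and Lypd8 (-0.47). Leaving out 1 array at a time gave ranges through 0 for Bmp4 (-0.31 to 0.068), Ccr7 (-0.030 to 0.83), Cd3e (-0.12 to 0.53), Cd4 (-0.74 to 0.069), Cd79a (-0.98 to 0.28), Cpt1a (-0.17 to 0.20), Dclk1 (-0.096 to 0.17), Ern1 (-0.50 to 0.066), Flt3 (-0.045 to 0.59), H2-K1 (-0.011 to 0.18), Hoxd10 (-0.23 to 0.20), Hoxd13 (-0.80 to 0.19), Il1rn (-0.16 to 0.14), Krt8 (-0.047 to 0.27), Lypd8 (-0.24 to 0.42), Mthfd2 (-0.066 to 0.85), Postn (-0.22 to 0.0054), Saa1 (-0.42 to 0.16) and Scd1 (-0.013 to 1.02). The cause was not tested.

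Among the Flox arrays, replicate numbers 1, 2 and 4 also mark the slide, but deviations of same-numbered arrays correlated at 0.0013, 0.14 and 0.27, so the numbers were not taken to pair the mice. With the replicate block 11051 probes were called, and the differences of Cpt1a (-0.00255), Dclk1 (-0.020) and Hoxd10 (0.0092) changed sign. Called members fell from 20 to 13 downward in oxidative phosphorylation, from 20 to 9 in cholesterol synthesis and from 11 to 5 upward in amino acid metabolism. The difference between the Flox and GR iKO responses, 68 probes, became 0 with slides as the block and 0 with separate variances. Slide and replicate number are not the same thing among the GR iKO arrays. In simulated data with the measured SD of each group, 56% of probes changed by 1 on the log2 scale and 81% of those changed by 2 were recovered. Of all calls there 29.0% were false, although 5% was the nominal rate. In that simulation 200 of 28112 probes were changed, against 55.0% called in the data, and the DSS arrays kept their wider spread. Neither the recovered nor the false share therefore carries over to the data. Signal near background limits the dimmest genes.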
